A study of Mus musculus with 12 samples.

Results

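RNA from C22 cells in which Pdcd5 had been silenced before exposure to TGF-β1 was compared with RNA from equally exposed control cells. The comparison rests on 6 of the 12 libraries of the study, taken by their labels: 3 siPdcd5 + TGF-β1 libraries and 3 NC + TGF-β1 libraries. All genes with enough counts entered the comparison, 12425 of 23282 gene rows, and the account is mainly of genes outside the extracellular matrix (ECM). C22 is a mouse club cell line, derived as 1 immortalised clone from H-2Kb-tsA58 mice, which carry a temperature-sensitive large T antigen. All groups share this transgene, the switch to conditions without γ-interferon in which the cells differentiate, and a short serum starvation. NC cells carried a negative control and siPdcd5 cells the knockdown of Pdcd5. The treated groups received 20 ng/ml TGF-β1 for 24 h, and the remaining 6 libraries, 3 NC and 3 siPdcd5, received none. The question behind the comparison is which transcripts of TGF-β1-exposed cells depend on Pdcd5. The sequence of the Pdcd5 siRNA was not used here, and effects of the siRNA on transcripts other than Pdcd5 cannot be told apart from effects of lower Pdcd5.

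PDCD5, programmed cell death 5, is a small protein of the cytoplasm and nucleus that was first described in apoptosis, binds the cytosolic chaperonin CCT and acts with the acetyltransferase KAT5 on p53. TGF-β1 signals through a receptor kinase pair to SMAD2 and SMAD3, which enter the nucleus with SMAD4 and switch on genes of the matrix, the contractile cytoskeleton and the pathway's own feedback. Club cells are secretory cells of the small airways, known for secretoglobins, for enzymes that handle foreign compounds and for their role as progenitors of the airway epithelium.

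Pdcd5 itself was read at 66.3, 69.6 and 67.5 CPM (counts per 1000000 counts of a library, after scaling the libraries to each other with TMM factors) in the 3 NC + TGF-β1 libraries and at 24.1, 21.8 and 26.3 CPM in the siPdcd5 + TGF-β1 libraries. The groups were far apart and tight, with a mean of 67.8 ± 1.69 against 24.1 ± 2.3 CPM (SD, n = 3 each). The log2 fold change was −1.49 ± 0.10 (SE), a 2.81-fold fall, with an adjusted p of 5.48e-06 in edgeR's quasi-likelihood test (Benjamini-Hochberg, over all genes tested). Without TGF-β1, Pdcd5 was read at 73.5, 65.7 and 65.1 CPM in NC and at 21.2, 19.9 and 22.1 CPM in siPdcd5. TGF-β1 did not move the transcript in NC cells beyond the spread between libraries (log2 fold change −0.01, adjusted p = 0.979 in edgeR's quasi-likelihood test).

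Library totals ran from 12809857 to 17714828 counts, so that 3 counts, taken as the smallest readable level, stood for 0.165 to 0.239 CPM. No molecular identifiers were used, and this limit covers counting error alone. The labels number the replicates without saying whether they were separate cultures, and p-values measure the spread between these libraries. NC + TGF-β1 replicate 2 stood apart from the other treated controls on a principal component, at −38.1 against 8.81 and 16.3, and the number of genes called and the counts of most gene lists are given with and without it. Of the 10 club cell markers, Scgb3a2, Cyp2f2 and Cckar had no count in any library and Scgb1a1, the defining secretoglobin, at most 1 count in a treated library. Only Aldh1a1 and Cbr2 had enough counts to be tested. Among 12 markers of airway epithelium, Krt8, Krt18, Krt7, Cdh1 and Foxa2 were tested, while Epcam, Nkx2-1 and Foxa1 were at or near 0. Most defining markers of club cells were thus at or near 0. Markers of other cells differed in level, given here as sums for NC + TGF-β1 and then siPdcd5 + TGF-β1. The 8 alveolar type 1 markers gave 825 to 1010 and 868 to 898 CPM. Most of this came from Pdpn, at 230 to 359 and 329 to 352 CPM, Akap5, at 310 to 343 and 300 to 330 CPM, and Emp2, at 224 to 284 and 181 to 194 CPM. Aqp5 held 25.6 to 44.5 and 31.1 to 37.8 CPM. Ager, Rtkn2 and Clic5 were at 6.94 CPM or less, and Hopx had at most 1 count in a treated library. The 10 fibroblast markers gave 32.1 to 46.5 and 31.8 to 36.1 CPM. Of these, Pdgfrb held 23.1 to 40.6 and 24.7 to 28.9 CPM, and Tcf21 and Meox2 had 0 counts in both groups. Pdgfra, Dpt and Gli1 also had enough counts to be tested. The 11 endothelial and leukocyte markers gave 13.3 to 15 and 12.3 to 15.6 CPM. In bulk RNA, fewer cells of a type and less of a transcript per cell cannot be told apart.

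Pdcd5 knockdown in TGF-β1-treated cells lowered more genes than it raised. At an adjusted p under 0.05, 192 of 12425 genes were called, 1.55%, of which 41 were higher (0.330%) and 151 lower (1.22%). At an unadjusted p under 0.05 there were 1710 genes. The median log2 fold change over all genes tested was −0.02. The ECM list held 24 of the called genes, 2 higher and 22 lower, out of 133 members tested, with a median of −0.25. Outside that list 168 of 12292 genes were called, 1.37%, with 39 higher and 129 lower, and 51 of them changed at least 2-fold. For each of the 168 genes all libraries of one group lay above all those of the other, which also held for 18.8% of all genes tested. Counts of called genes in the lists below are to be read against the 1.37% of genes called outside the ECM list. Below, a gene is said to have fallen or risen with the knockdown where it was called, and the error given beside a log2 fold change is its SE. Without NC + TGF-β1 replicate 2, 295 genes outside the ECM list were called, 64 higher and 231 lower, and 143 of the 168 were among them. Leaving out another of the 6 libraries gave between 64 and 104 genes, the fewest without siPdcd5 + TGF-β1 replicate 3. Of 54 called genes outside the ECM list that were named by rule, 20 passed with each library left out and 34 missed the threshold without at least 1 of them, with adjusted p up to 0.222 in edgeR's quasi-likelihood test and an unchanged direction. By library, 21, 5 and 20 of these calls were lost without NC + TGF-β1 replicate 1, 2 and 3 (Igf1r, Slc7a5, Tmem53, Pard3 and Timm8a1 without replicate 2), and 23, 30 and 31 without siPdcd5 + TGF-β1 replicate 1, 2 and 3. The 20 were Pdcd5, Slit2, Rcn3, Papss2, Krt14, Vldlr, Igf1, Jag1, Ddit4l, Lpl, Acta2, Klf5, Sema3a, Trib3, Nupr1, Ero1l and Aldh1a1, which fell, and 5730408K05Rik, Prl2c2 and Gda, which rose. Quantile normalisation with limma-trend gave 51 higher and 110 lower genes in all, a share of 31.7% higher against 21.4%.

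**Figure D1:**
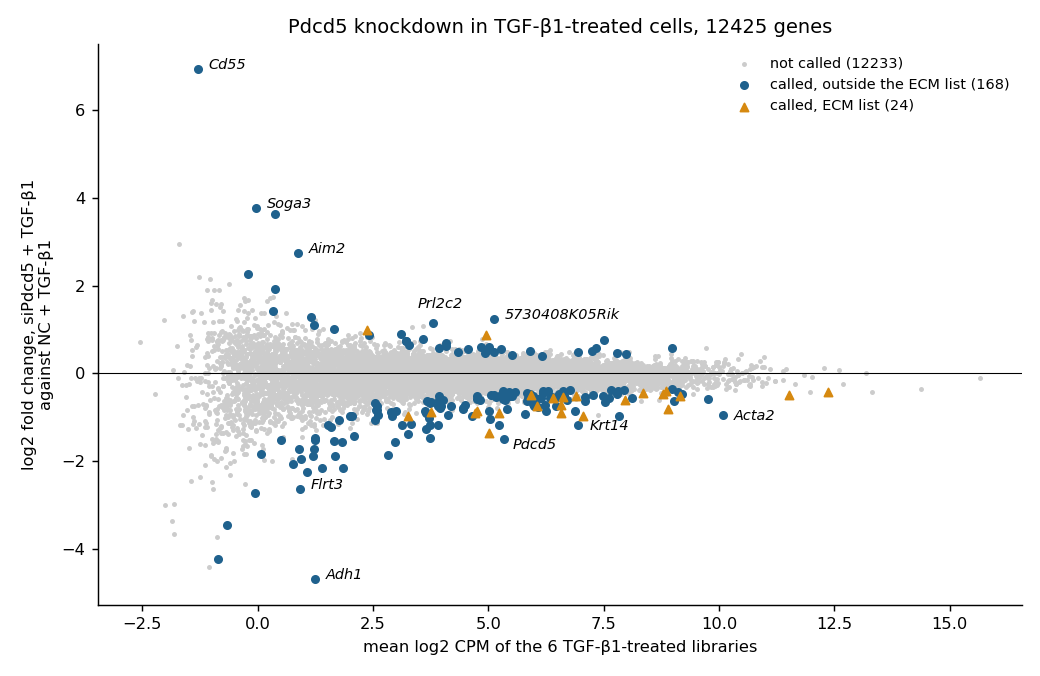
Log2 fold change of siPdcd5 + TGF-β1 against NC + TGF-β1 (vertical axis) against the mean log2 CPM of the 6 libraries (horizontal axis) for all 12425 genes; blue points are the 168 called genes outside the ECM list, orange triangles the 24 called ECM genes and grey points the genes not called. Most called genes lie below 0, and the largest fold changes belong to genes near the lower end of the level axis; the value of Cd55, with 0 counts in the controls, depends on the prior count of the fit.

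Genes for secreted signals and their receptors stood among the largest falls. Slit2, the guidance ligand of Robo receptors, was read at 17.3, 13.7 and 14.8 CPM in NC + TGF-β1 and at 6.71, 5.01 and 5.91 CPM in siPdcd5 + TGF-β1. That is a log2 fold change of −1.38 ± 0.16 (adjusted p = 0.000567, edgeR's quasi-likelihood test), and without TGF-β1 it fell by 1.86 on the log2 scale. TGF-β1 left its level where it was in NC cells, at 14.8, 15.3 and 14.2 CPM before treatment. Sema3a, a secreted semaphorin, fell from 78.5, 77.0 and 82.9 CPM to 51.1, 47.0 and 48.9 CPM, a log2 fold change of −0.70 ± 0.10. Of 39 tested members of the guidance list these 2 were called, both lower, with a list median of −0.08.

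Promoters of the named genes with the largest changes are shown so that the sequence next to the transcripts that moved can be read. The RefSeq promoter table (GRCm38.p6) held entries for 97 of the 129 lower and 30 of the 39 higher genes outside the ECM list, and the 250 bases before the first annotated start are given for 4 of the most changed genes named by rule that had an entry. Capitals mark matches, on either strand, to CAGACA (SMAD, TGTCTG on the other strand), GTCTAGAC (SMAD), CTTTGA (TCF/LEF), TGACTCA (AP-1, the same as TGAGTCA on the other strand) or CATTCC (TEAD). The Slit2 window lies at chr5:47982905-47983154 (+), Rcn3 at chr7:45092214-45092463 (−), 5730408K05Rik at chr19:8888771-8889020 (−) and Papss2 at chr19:32595465-32595714 (+), the first of 2 starts.
Slit2: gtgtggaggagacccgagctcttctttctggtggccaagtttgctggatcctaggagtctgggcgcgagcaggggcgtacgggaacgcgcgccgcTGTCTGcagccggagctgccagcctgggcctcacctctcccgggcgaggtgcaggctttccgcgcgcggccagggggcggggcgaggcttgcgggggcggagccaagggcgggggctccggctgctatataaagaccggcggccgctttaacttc
Rcn3: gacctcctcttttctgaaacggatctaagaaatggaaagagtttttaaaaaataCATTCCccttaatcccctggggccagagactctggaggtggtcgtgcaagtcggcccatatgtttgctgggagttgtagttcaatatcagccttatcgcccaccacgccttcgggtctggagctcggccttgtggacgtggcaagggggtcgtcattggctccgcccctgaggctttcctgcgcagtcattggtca
5730408K05Rik: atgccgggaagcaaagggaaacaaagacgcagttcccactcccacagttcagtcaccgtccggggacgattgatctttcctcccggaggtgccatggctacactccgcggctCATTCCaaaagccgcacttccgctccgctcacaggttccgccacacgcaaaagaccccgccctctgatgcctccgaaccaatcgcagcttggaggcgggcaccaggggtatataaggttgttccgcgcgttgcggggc
Papss2: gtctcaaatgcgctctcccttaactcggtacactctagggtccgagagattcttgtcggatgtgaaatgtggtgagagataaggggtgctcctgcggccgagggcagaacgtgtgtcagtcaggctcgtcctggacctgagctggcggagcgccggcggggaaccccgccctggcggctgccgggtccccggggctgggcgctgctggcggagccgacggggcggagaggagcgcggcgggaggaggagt
Slit2 held 1 match to CAGACA, Rcn3 and 5730408K05Rik 1 match each to CATTCC, and Papss2 none. CAGACA was found in 16.5% of the lower genes and 3 of the 30 higher genes, against 15.7% of the 9443 tested genes with an entry. CTTTGA was found in 15.5% and 3 of 30 against 12.4%, CATTCC in 13.4% and 3 of 30 against 12.8%, TGACTCA in 4.12% and 0 of 30 against 4.11%, and GTCTAGAC in no gene of either group against 0.233%. Counted per promoter instead of per gene, all 32851 promoters of the table held CAGACA in 17.1%, CTTTGA in 13.8%, CATTCC in 12.6%, TGACTCA in 4.46% and GTCTAGAC in 0.167%. A gene with several starts counts once if any start holds the match, and these shares are descriptions of the letters in the window.

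Igf1, insulin-like growth factor 1, was raised by TGF-β1 and lowered by the knockdown. NC cells held 5.93, 7.86 and 8.44 CPM before TGF-β1 and 54.4, 57.8 and 57.4 CPM after it. The siPdcd5 + TGF-β1 libraries held 26, 23.7 and 25.4 CPM, so the transcript was still far above the untreated control but 2.3-fold below the treated one (log2 fold change −1.17 ± 0.15, adjusted p = 0.00104, edgeR's quasi-likelihood test). Without TGF-β1 the knockdown took it to 1.11, 1.65 and 0.708 CPM, a log2 fold change of −2.64. The difference between the 2 knockdown effects was 1.47 on the log2 scale, with an unadjusted p of 9.92e-05 and an adjusted p of 0.346 by edgeR's quasi-likelihood test and an adjusted p of 0.0006 by DESeq2. Igf1r, its receptor, went from 209 to 245 CPM to 169 to 181 CPM (−0.39 ± 0.09), and Htra1, a secreted protease that also acts on growth factor signals, from 650 to 737 CPM to 476 to 518 CPM (−0.46 ± 0.08). These 3 were the called members among 10 tested genes of the IGF axis, whose median was −0.29. Igf1r passed narrowly (adjusted p = 0.0492, edgeR's quasi-likelihood test). With a library left out, its call was lost in 5 of the 6 fits and that of Htra1 in 1. Ghr, the growth hormone receptor and a gene named after its values were seen, fell from 25.9, 32.5 and 28.4 CPM to 18.2, 15.3 and 16.3 CPM (−0.80 ± 0.13). Igf1 and Htra1 overlap an annotated gene on the other strand, Igf1os and Fgfr2, and the counting is not known to have used strand.

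Jag1, a Notch ligand, was read at 37.8, 55.8 and 47.4 CPM in NC + TGF-β1 and at 23.9, 20.8 and 23.7 CPM in siPdcd5 + TGF-β1 (log2 fold change −1.04 ± 0.16). Notch1, one of its receptors, fell from 45.5, 41.0 and 43.1 CPM to 30.1, 28.4 and 30.8 CPM (−0.54 ± 0.09). Both passed the threshold of edgeR's quasi-likelihood test (adjusted p = 0.00303 and 0.00654). They were 2 of 10 tested genes of the Notch list, of which 8 lay below 0, with a median of −0.39 with TGF-β1 and −0.08 without it. Hes1, a Notch target, had a log2 fold change of −0.62 ± 0.21 and was not called (adjusted p = 0.179, edgeR's quasi-likelihood test).

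Some ligands and receptors of other pathways fell as well. Wnt5a, a Wnt ligand of the β-catenin-independent branch, was at 46.6, 38.6 and 44.4 CPM and after knockdown at 27.7, 24.6 and 19.4 CPM (−0.85 ± 0.15). Wls, the carrier that brings Wnt proteins to the cell surface and a gene named here after its values were seen, was at 624 to 656 CPM and after knockdown at 456 to 515 CPM (−0.42 ± 0.09, adjusted p = 0.0351, edgeR's quasi-likelihood test). Its call held in 7 of 14 other settings and was lost in 5 of the 6 fits with a library left out, all but that without NC + TGF-β1 replicate 2, with adjusted p up to 0.179 in edgeR's quasi-likelihood test. Wnt5a was the single called gene among 38 tested members of the Wnt and β-catenin list, and Ctnnb1, which encodes β-catenin, had a log2 fold change of 0.14 ± 0.11. Egfr, the EGF receptor, fell from 37.6, 43.8 and 42.0 CPM to 29.9, 27.4 and 29.5 CPM, and Fgf18, an FGF ligand, from 50.6, 45.0 and 57.4 CPM to 35.7, 30.9 and 33.7 CPM. These 2 were the called genes among 19 tested of the EGF and FGF families, of which 9 lay above and 10 below 0. Npr3, the clearance receptor of natriuretic peptides, was at 14.5, 11.5 and 18.5 CPM against 6.98, 6.86 and 6.05 CPM (−1.16 ± 0.23). With a library left out, the calls of Fgf18 and Npr3 were each lost in 5 of the 6 fits, that of Wnt5a in 3 and that of Egfr in 2. Pdgfrl, a secreted protein similar to the PDGF receptor, was at 8.36, 19.3 and 12.3 CPM against 5.63, 5.55 and 6.32 CPM (−1.19 ± 0.25), where the highest control value came from replicate 2. Without that library its log2 fold change was −0.83 and still past the threshold, but it was not called without NC + TGF-β1 replicate 3 or without any 1 of the 3 siPdcd5 + TGF-β1 libraries.

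**Figure D2:**
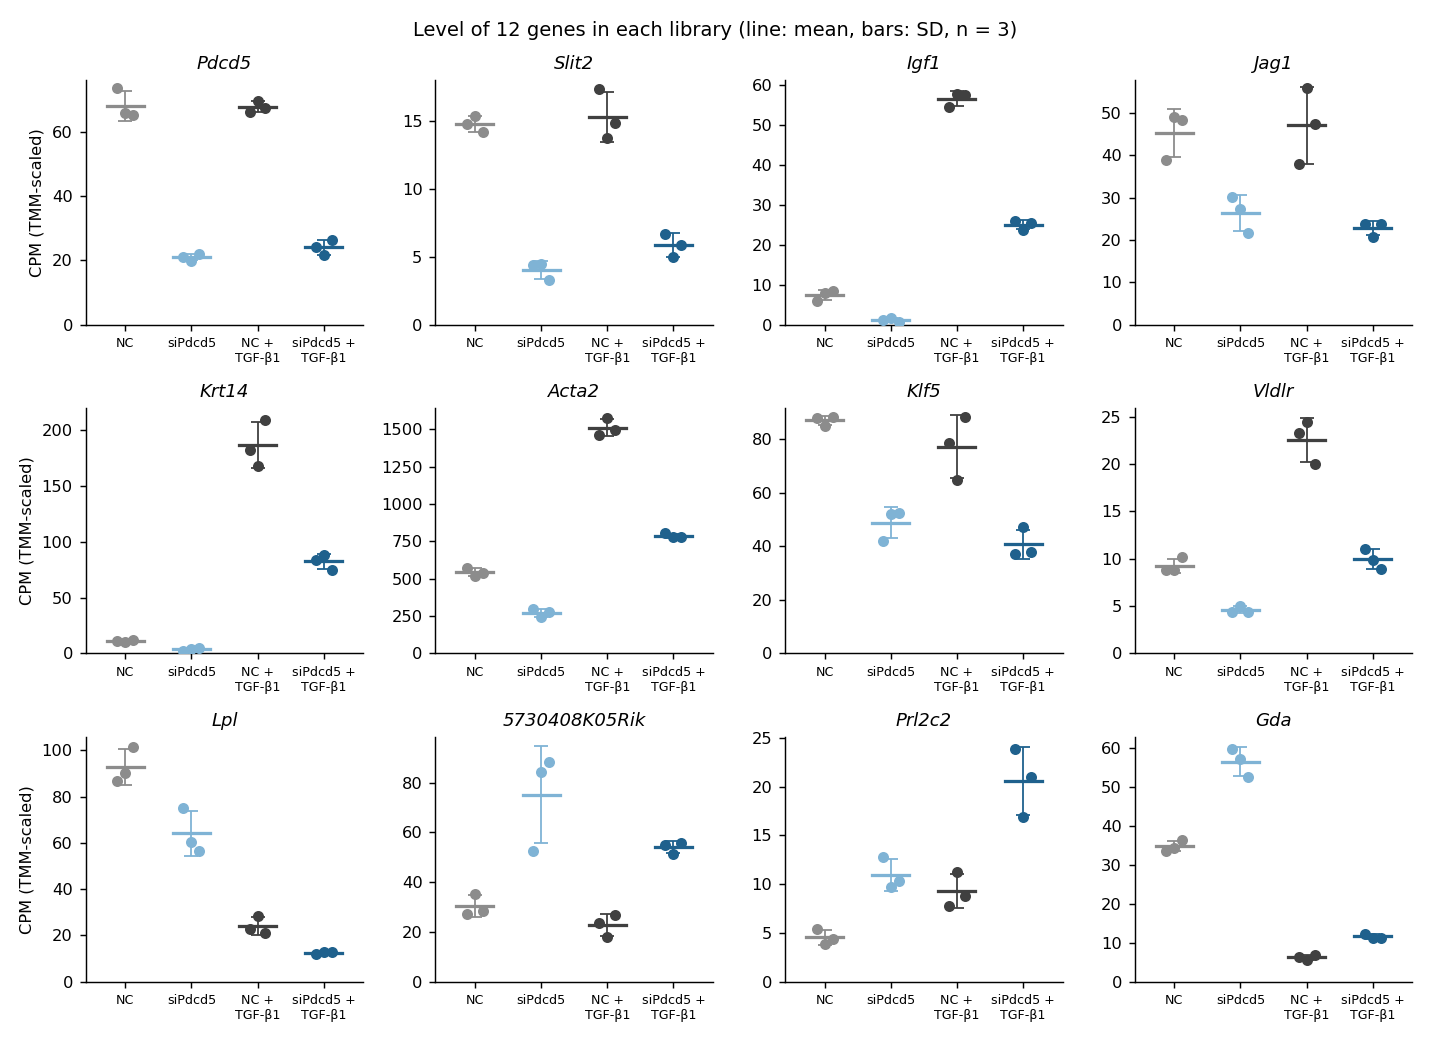
Level in CPM (vertical axis, from 0) of Pdcd5, 8 genes that fell and 3 that rose, in each of the 12 libraries; points are libraries, lines the mean and bars the SD of the 3 libraries of a group. In each panel the siPdcd5 + TGF-β1 points lie apart from the NC + TGF-β1 points, for Slit2 at 5.01 to 6.71 against 13.7 to 17.3 CPM.

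Cytoskeletal and epithelial genes included the most abundant of the falls. Acta2, smooth muscle α-actin and a marker of contractile cells, was read at 1462, 1575 and 1498 CPM in NC + TGF-β1 and at 802, 776 and 778 CPM in siPdcd5 + TGF-β1. The log2 fold change was −0.94 ± 0.09 with an adjusted p of 0.000104 in edgeR's quasi-likelihood test, and it was −1.0 without TGF-β1, where NC held 521 to 574 CPM and siPdcd5 241 to 295 CPM. Acta2 was the 1 called gene among 33 tested members of the contractile list, although 30 of the 33 lay below 0 and the median was −0.21. Over 14 other settings of the analysis (other scaling, filters and tools, a replicate block, or a library left out) between 1 and 6 members of this list were called. Nexn, an actin-binding protein named after its values were seen, fell from 76.6, 81.3 and 87.8 CPM to 52.1, 46.6 and 48.6 CPM (−0.74 ± 0.09).

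Krt14, a keratin typical of basal epithelial cells, was at 10.7, 9.86 and 11.9 CPM in NC and at 183, 168 and 210 CPM in NC + TGF-β1. In siPdcd5 + TGF-β1 it stood at 84.1, 88.0 and 75.0 CPM, a log2 fold change of −1.18 ± 0.17 (adjusted p = 0.00219, edgeR's quasi-likelihood test). The other basal and goblet cell markers, Trp63 and Krt5 included, had too few counts to be tested, and the summed level of all 9 was 169 to 210 CPM in treated controls and 75.7 to 88.3 CPM after knockdown. Krt8 (−0.12 ± 0.11) and Krt18 (0.17 ± 0.13), the keratins of simple epithelia, were not called. Klf5, a transcription factor of epithelial progenitors, fell from 78.5, 65.0 and 88.3 CPM to 37.0, 47.1 and 38.0 CPM (−0.93 ± 0.13). Perp, a desmosome protein and p53 target, fell from 112, 104 and 108 CPM to 77.2, 75.4 and 70.6 CPM, and Emp2, a membrane protein of alveolar type 1 cells, from 284, 224 and 278 CPM to 193, 194 and 181 CPM. Tubb3, a β-tubulin of neurons, was at 11, 9.19 and 11.5 CPM against 5.97, 6.40 and 5.04 CPM, the 1 called gene of 16 tested in the tubulin list; it overlaps Gm20388 on the same strand.

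Of the 2 testable club cell markers 1 fell, while the airway regulator Foxa2 rose. Aldh1a1, a retinaldehyde dehydrogenase, was at 555, 555 and 546 CPM in NC, 245, 231 and 238 CPM in NC + TGF-β1 and 160, 165 and 155 CPM in siPdcd5 + TGF-β1, so the treated knockdown held the lowest values (log2 fold change −0.57 ± 0.08, adjusted p = 0.00145, edgeR's quasi-likelihood test). Cbr2, a carbonyl reductase, spread from 82.5 to 187 CPM among the treated controls and lay at 98.3 to 109 CPM after knockdown, without a call (−0.35 ± 0.22, adjusted p = 0.536, edgeR's quasi-likelihood test). Without NC + TGF-β1 replicate 2, which held the lowest control value, its log2 fold change was −0.60 and it was called lower (adjusted p = 0.0479, edgeR's quasi-likelihood test), as in none of the 13 other settings. Foxa2, a transcription factor of the airway epithelium, was at 160 to 183 CPM in NC and 49.7, 52.1 and 49.1 CPM in NC + TGF-β1. After knockdown it was higher, at 70.5, 76.6 and 66.4 CPM (0.50 ± 0.09, adjusted p = 0.00924, edgeR's quasi-likelihood test). Cdh1, E-cadherin, stood at 1.91 to 2.39 CPM and 2.01 to 2.28 CPM. The summed level of the 10 club cell markers was 314 to 426 CPM in NC + TGF-β1 and 259 to 273 CPM in siPdcd5 + TGF-β1, and that of the 12 airway markers 1290 to 1730 and 1650 to 1720 CPM. Their part in the other results was not tested.

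Genes of the response to amino acid shortage are switched on by the transcription factor ATF4 when amino acids are scarce or the endoplasmic reticulum is strained. By number, they formed the largest group of calls among the lists outside the matrix. The lists differ in size, and 3 of 10 tested genes of the IGF axis and 2 of 10 of the Notch list were called. Of 33 tested amino acid response genes 7 were lower and 0 higher, where 1.37% of all genes outside the ECM list were called. Of the 33 genes 29 lay below 0, and the median was −0.30 with TGF-β1 and −0.24 without it. Without NC + TGF-β1 replicate 2 the count of lower genes was 10, and over 14 other settings it ran from 2 to 10. Vldlr, a lipoprotein receptor, had the largest fall, from 23.2, 24.4 and 19.9 CPM to 11, 9.87 and 8.94 CPM (−1.18 ± 0.14). Trib3, a pseudokinase that feeds back on ATF4, rose from 16.9 to 17.5 CPM in NC to 80.1, 73.1 and 82.1 CPM with TGF-β1 and stood at 49.8, 51.7 and 46.6 CPM in siPdcd5 + TGF-β1 (−0.67 ± 0.09, adjusted p = 0.00183, edgeR's quasi-likelihood test).

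Nupr1, a stress-induced chromatin protein, was at 678, 565 and 706 CPM in treated controls and at 411, 437 and 410 CPM after knockdown (−0.63 ± 0.09). The enzymes of this group fell less: Asns, asparagine synthetase, from 119 to 130 CPM to 93.2 to 97.8 CPM (−0.38 ± 0.09) and Phgdh, the first enzyme of serine synthesis, from 110 to 116 CPM to 84.2 to 86.7 CPM (−0.41 ± 0.09). The amino acid transporters Slc7a5 and Slc6a9 had log2 fold changes of −0.63 ± 0.15 and −0.46 ± 0.10. Atf4 itself, spread from 925 to 1699 CPM among the treated controls, was not called (−0.30 ± 0.19, adjusted p = 0.531, edgeR's quasi-likelihood test), and Gdf15, a secreted stress signal, had the highest value of the list, 0.74 ± 0.30, also without a call. Of the 7 called genes, Vldlr and Trib3 passed in all 14 other settings, Nupr1 in 13, Phgdh and Slc6a9 in 6 and Asns in 4. Slc7a5 passed in 3 of them, failing among others without NC + TGF-β1 replicate 2.

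Several metabolic enzymes outside the list also changed, of which Bcat1, Aldh1l2 and Pck2 were named after their values were seen. Bcat1, which starts the breakdown of branched-chain amino acids, was at 13.8, 11.7 and 14.4 CPM against 5.10, 3.85 and 4.43 CPM (−1.57 ± 0.18). Aldh1l2, a mitochondrial folate enzyme, fell from 51.6, 57.0 and 59.9 CPM to 32.6, 34.9 and 27.9 CPM, and Pck2, the mitochondrial PEP carboxykinase, from 164, 166 and 181 CPM to 109, 116 and 105 CPM. Shmt1, the cytosolic serine hydroxymethyltransferase, went the other way, from 7.72, 6.57 and 7.09 CPM to 10.8, 11.3 and 13.6 CPM (0.74 ± 0.15).

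**Figure D3:**
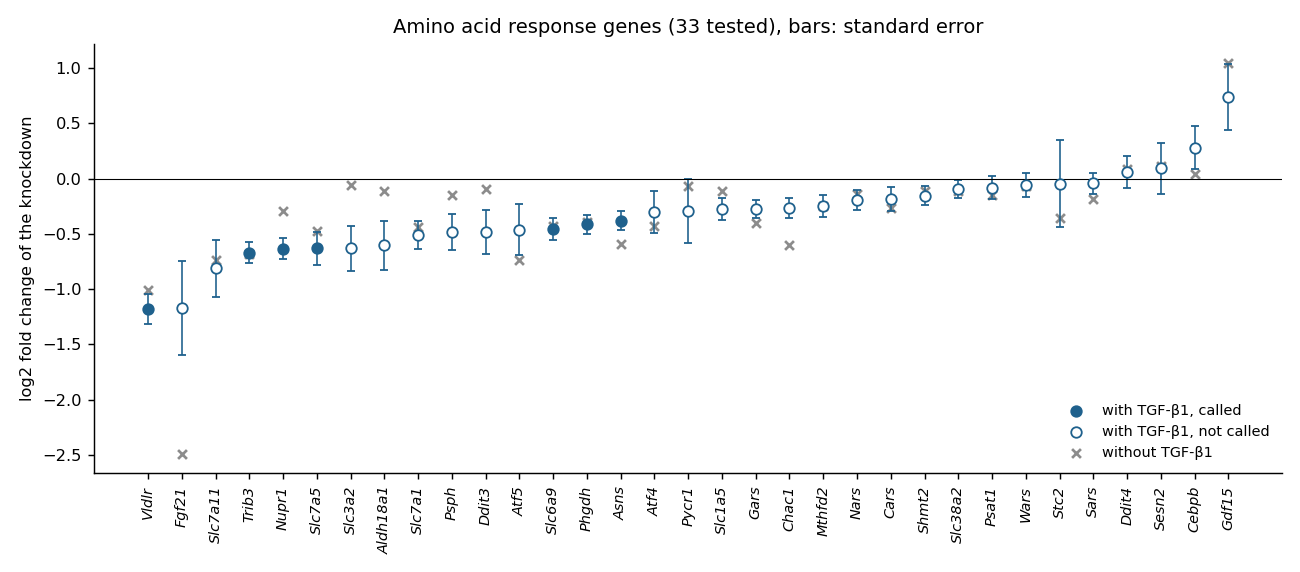
Log2 fold change of the knockdown (vertical axis) for the 33 tested genes of the amino acid response list, ordered along the horizontal axis; circles are the values with TGF-β1, filled where called, bars their standard error, and crosses the values without TGF-β1. Of the 33 circles 29 lie below 0, from Vldlr at −1.18 upwards, and 7 are filled.

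Of 23 tested chaperones and regulators of the endoplasmic reticulum, 22 lay below 0 with a median of −0.25, and 1 was called, Herpud1, a membrane protein of protein disposal (165 ± 11 against 114 ± 6.6 CPM, SD, n = 3 each, −0.54 ± 0.09 with an adjusted p of 0.00671 from edgeR's quasi-likelihood test). Ero1l, the oxidase that renews disulfide bonds, fell from 130, 124 and 135 CPM to 84.8, 86.8 and 82.9 CPM (−0.61 ± 0.09). With P4ha1, a collagen prolyl hydroxylase that is also on the ECM list (95.8 to 118 against 64.4 to 74.4 CPM), it made up the 2 called genes among 32 tested in the glycolysis and hypoxia list. Rcn3, a calcium-binding chaperone of the secretory pathway, was at 20.7, 14.4 and 23.2 CPM against 6.44, 8.48 and 9.27 CPM (−1.27 ± 0.21). Creb3l1, a membrane-bound transcription factor that drives secretory genes, fell from 145, 174 and 160 CPM to 94.0, 78.1 and 90.8 CPM (−0.87 ± 0.10), and Serpini1, a secreted protease inhibitor, from 93.3, 95.7 and 118 CPM to 54.3, 55.7 and 58.9 CPM (−0.86 ± 0.11). Creb3l1 and Serpini1 were named after their values were seen.

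The named falls also included Lpl, Papss2 and Abca1. Lpl, lipoprotein lipase, was at 86.6 to 101 CPM in NC, at 22.8, 28.6 and 21.3 CPM in NC + TGF-β1 and at 12.1, 12.8 and 12.8 CPM in siPdcd5 + TGF-β1 (−0.95 ± 0.14). Papss2, which makes the sulfate donor for proteoglycans, was at 22.6, 17.6 and 20.2 CPM against 11.3, 8.48 and 6.65 CPM (−1.19 ± 0.20). Abca1, the cholesterol exporter, had 26.8, 49.8 and 30.3 CPM in treated controls and 19.9, 16 and 18.3 CPM after knockdown (−0.98 ± 0.20), again with the highest value in NC + TGF-β1 replicate 2, without which it was −0.66. The 34 tested genes of cholesterol and fatty acid synthesis had 0 calls in edgeR's quasi-likelihood test, DESeq2 or limma and 3 genes at an unadjusted p under 0.05, with a median of 0.01.

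Lists tied to the known roles of PDCD5 held 5 called genes, to be read against 1.37% of all genes outside the ECM list. These were 1 of 20 tested genes of the chaperonin and prefoldin list, 1 of 28 p53 targets and, among 33 apoptosis regulators, 2 higher and 1 lower. None of the 8 subunits of the CCT chaperonin was called in edgeR's quasi-likelihood test, DESeq2 or limma, 0 had an unadjusted p under 0.05, and their log2 fold changes, all above 0, had a median of 0.11. Vbp1, a subunit of the CCT partner prefoldin, was higher at 36.7, 36.7 and 33.2 CPM against 27.0, 26.9 and 23.9 CPM (0.45 ± 0.10). Its call was lost in 5 of the 6 fits with a library left out. Among the 28 tested genes of the p53 target list, which does not hold Perp, Ddit4l, an inhibitor of mTOR signalling, was the 1 called gene, lower at 10.1, 8.02 and 9.07 CPM against 16.7, 18.8 and 19.9 CPM (−1.03 ± 0.14, adjusted p = 0.00145, edgeR's quasi-likelihood test). The list median was −0.01, with Cdkn1a at −0.03 ± 0.09. Kat5, the partner of PDCD5 in p53 acetylation, had a log2 fold change of 0.02 ± 0.15. Of 33 tested apoptosis regulators 2 were higher and 1, Perp, was lower.

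Bcl2, which blocks the mitochondrial route to apoptosis, was at 30.1, 23.7 and 28.5 CPM in NC and 13.5, 11.8 and 14.5 CPM in NC + TGF-β1. It rose with the knockdown to 21.1, 21.7 and 21.4 CPM (0.68 ± 0.13, adjusted p = 0.0165, edgeR's quasi-likelihood test). Without TGF-β1 its log2 fold change was 0.06, and the difference between both knockdown effects had an unadjusted p of 0.00404 and an adjusted p of 0.771 in edgeR's quasi-likelihood test. Birc5, survivin, which also serves in cell division, was at 27.1, 34.2 and 26.8 CPM against 40.2, 42.7 and 40.6 CPM (0.49 ± 0.11). The calls of Bcl2 and Birc5 were lost in 4 and 5 of the 6 fits with a library left out.

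Ligands, receptors and SMADs on the list of the TGF-β pathway were not called at this depth. Ltbp4, which stores latent TGF-β, was counted in the ECM list instead and was lower there (−0.98 ± 0.13, adjusted p = 0.00145, edgeR's quasi-likelihood test). None of 12 ligands and ligand-binding proteins, 10 receptors and 18 SMADs and feedback regulators passed the threshold in edgeR's quasi-likelihood test, DESeq2 or limma, with medians of −0.24, −0.08 and −0.02; at an unadjusted p under 0.05 in edgeR there were 6, 0 and 1. Smad3 had a log2 fold change of −0.14 ± 0.09 and Skil, a feedback regulator, one of −0.13 ± 0.15. Hmga2, a chromatin protein that TGF-β switches on, was the 1 called gene among 14 tested target transcription factors, and it was higher, at 243, 274 and 264 CPM against 193, 185 and 190 CPM (0.46 ± 0.09, adjusted p = 0.024, edgeR's quasi-likelihood test). In simulated counts of the same depth and fitted spread, the test recovered 38.5% of true 1.5-fold changes and 84.0% of true 2-fold changes. The changes were placed only in genes with a mean above 1 CPM. Counts were drawn independently, with no library set apart as NC + TGF-β1 replicate 2 was, so recovery in the real libraries may be lower.

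The rises were fewer than the falls, with a median of 0.65 against −0.75 outside the ECM list. The largest among well-read genes was 5730408K05Rik, a long noncoding RNA that RefSeq places on chromosome 19 at 8888387 to 8888770 (GRCm38). It was read at 23.6, 18.0 and 26.9 CPM in NC + TGF-β1 and at 54.9, 51.3 and 55.8 CPM in siPdcd5 + TGF-β1, a 2.37-fold rise (1.24 ± 0.19, adjusted p = 0.00303, edgeR's quasi-likelihood test). Prl2c2, a proliferin of the prolactin family, was at 7.80, 11.2 and 8.84 CPM against 23.9, 16.9 and 21 CPM (1.15 ± 0.18). All 4 tested proliferins lay above 0 with a median of 1.07; Prl2c3 missed the threshold at an adjusted p of 0.0505 in edgeR's quasi-likelihood test. Proliferin genes are near-identical copies, and since alignments to several places were counted, their levels cannot be told apart.

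Gda, guanine deaminase, was at 33.6 to 36.2 CPM in NC, 6.37, 5.53 and 6.87 CPM in NC + TGF-β1 and 12.3, 11.3 and 11.2 CPM in siPdcd5 + TGF-β1 (0.89 ± 0.12). Gm6682, a processed pseudogene, was at 160, 115 and 150 CPM against 214, 260 and 244 CPM (0.76 ± 0.14), and reads of its parent gene may be counted in it. Troap, a spindle-associated protein (0.79 ± 0.17), Impa2, an inositol phosphatase (0.74 ± 0.17), Tmem53, a membrane protein of the nuclear envelope (0.65 ± 0.15), and Hotairm1, a noncoding RNA of the Hoxa cluster (0.62 ± 0.14), rose as well. So did Pard3, a cell polarity protein (0.60 ± 0.14), and Timm8a1, a mitochondrial import factor (0.60 ± 0.13). Hotairm1 overlaps other annotated genes on both strands, so its reads cannot be assigned with certainty. Of the 12 rises named by rule, Bcl2 and Shmt1 included, 5730408K05Rik and Prl2c2 passed in all 14 other settings and Gda in 13, while Tmem53 and Timm8a1 passed in 5 and Pard3 in 3.

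Of 91 tested cell cycle genes 68 lay above 0, with a median of 0.14, and 1 was called, higher. Mki67, a marker of dividing cells, had a log2 fold change of 0.29 ± 0.15 without a call. The 79 tested ribosomal protein genes had 0 calls in edgeR's quasi-likelihood test, 14 with an unadjusted p under 0.05 and 1 call in DESeq2, with 68 members above 0 and a median of 0.12. The 75 subunits of oxidative phosphorylation had 0 calls in either tool and 7 with an unadjusted p under 0.05, with 53 above 0 and a median of 0.08, and the 31 proteasome subunits had 0 of each. In edgeR's quasi-likelihood test 0 of 34 cytokines and chemokines and 0 of 43 antioxidant genes were called, with 8 and 7 at an unadjusted p under 0.05 and 2 and 1 called by DESeq2. Integrins and syndecans, the cell's matrix receptors, had 0 calls among 25 tested in edgeR's quasi-likelihood test and 2 in DESeq2, but 14 had an unadjusted p under 0.05 and 21 lay below 0, with a median of −0.26. Without NC + TGF-β1 replicate 2, 4 integrins and syndecans were called lower. Without that library the called genes also came to 3 higher proliferins, 3 higher and 1 lower cell cycle genes, 2 higher chemokines, 1 higher subunit of oxidative phosphorylation, 1 lower interferon-stimulated gene and 4 lower genes of the EGF and FGF families. They came to 1 higher and 2 lower genes of the IGF axis, 1 higher and 1 lower tubulin, 2 lower p53 targets, 2 lower contractile genes, 3 lower guidance genes, 2 lower chaperones and regulators of the endoplasmic reticulum, 3 lower genes of glycolysis and hypoxia and, in the ECM list, 3 higher and 24 lower genes.

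**Figure D4:**
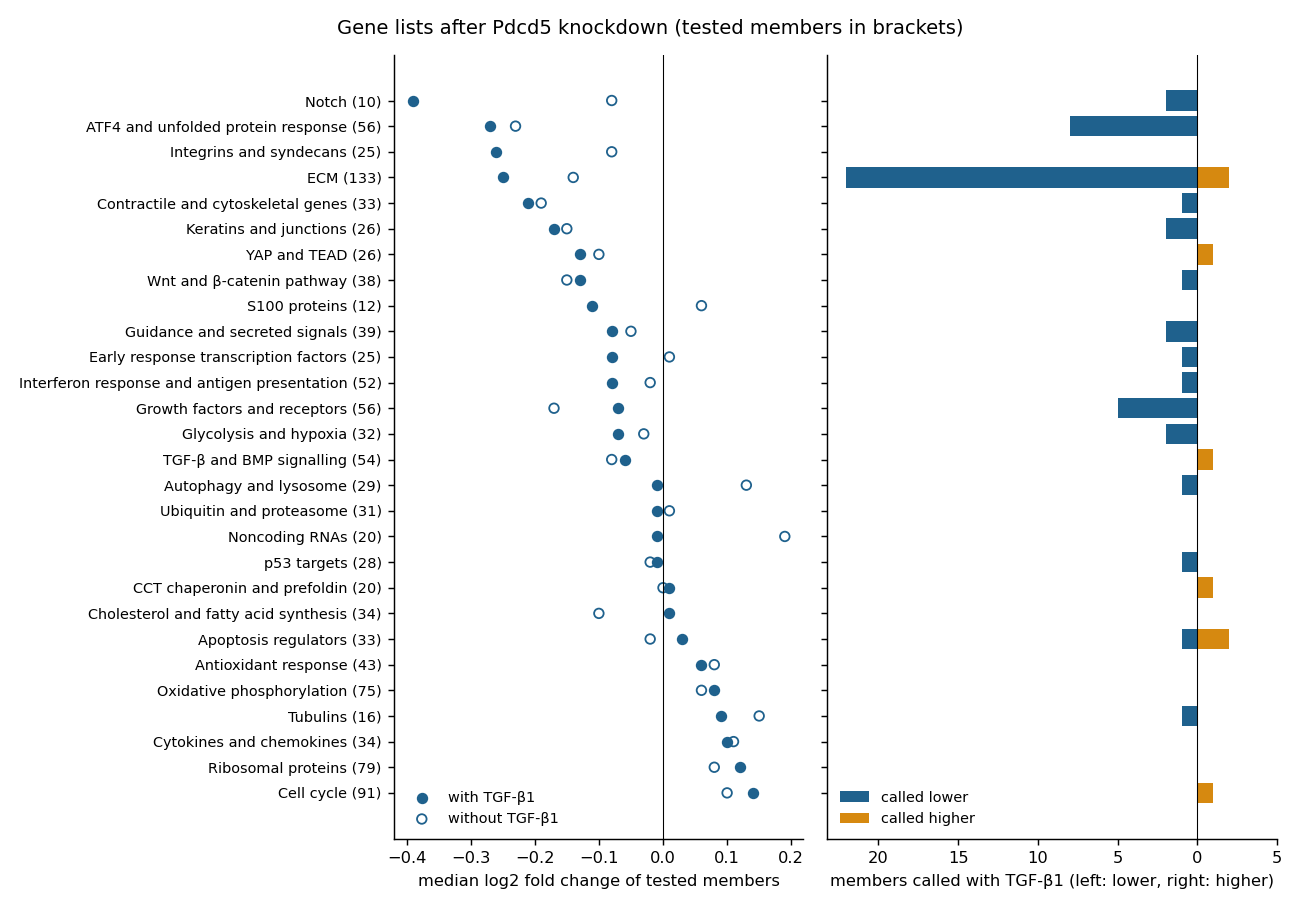
Gene lists after Pdcd5 knockdown, for lists with at least 10 tested members, whose number is in brackets: the left panel gives the median log2 fold change with TGF-β1 (filled) and without it (open), the right panel the number of members called lower (to the left) and higher (to the right) with TGF-β1. The ECM list with 22 lower genes and the ATF4 list with 8 stand out in counts, and medians run from −0.39 for Notch to 0.14 for the cell cycle.

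Cd74, the invariant chain of MHC class II, rose with TGF-β1 in NC cells from 5.11 to 9.82 CPM to 24.7, 13.9 and 28.4 CPM and stood at 7.45, 9.25 and 7.39 CPM in siPdcd5 + TGF-β1 (−1.48 ± 0.33, adjusted p = 0.0419, edgeR's quasi-likelihood test). This call was lost in 8 of 14 other settings, where its adjusted p reached 0.176, among them leaving out NC + TGF-β1 replicate 1 or 3 or any siPdcd5 + TGF-β1 library. H2-Eb1, a class II β chain named after its values were seen, had 4.54, 3.74 and 4.90 CPM against 1.88, 1.93 and 1.81 CPM (−1.23 ± 0.29, adjusted p = 0.0492, edgeR's quasi-likelihood test). It passed in 6 of 14 other settings and in 1 of the 6 fits with a library left out, that without NC + TGF-β1 replicate 2, with adjusted p up to 0.18 in edgeR's quasi-likelihood test. H2-Ab1 stood at 0.671 to 1.17 CPM in both groups. Of 38 tested interferon-stimulated genes 0 were called in edgeR's quasi-likelihood test, 5 had an unadjusted p under 0.05 and DESeq2 called 1, with a median of −0.02. Ctsc, a lysosomal protease, fell from 48.1, 63.1 and 54.1 CPM to 38.4, 37.7 and 38.5 CPM (−0.53 ± 0.11).

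The largest fold changes came from genes read at a few CPM, which were named after their values were seen. Adh1, an alcohol dehydrogenase of retinol metabolism, fell from 11.6, 10.5 and 11.7 CPM to 0.268, 0.925 and 0.134 CPM, that is from 140 to 160 counts to 2 to 12 counts (−4.70 ± 0.36). Without TGF-β1 it fell from 6.30 to 8.59 CPM to 0.826 to 1.03 CPM. Flrt3, an adhesion protein that binds Unc5 and latrophilin, fell from 5.25, 4.86 and 3.07 CPM to 0.671, 0.463 and 0.941 CPM (−2.63 ± 0.31), and its relative Flrt2 from 218 to 246 CPM to 142 to 151 CPM (−0.65 ± 0.08). Arhgap24, a GTPase-activating protein, was at 7.08, 5.53 and 10.1 CPM against 2.08, 1.16 and 1.75 CPM, and Adgrg6, an adhesion receptor, at 4.03 to 4.14 CPM against 1.01 to 1.16 CPM.

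In the other direction, Aim2, a sensor of cytosolic DNA, was at 0.875, 0.523 and 0.511 CPM against 4.09, 4.32 and 4.43 CPM (2.74 ± 0.38). Soga3 and 9330159F19Rik were at 0.365 CPM or less and 0.557 CPM or less in treated controls and at 2.48 to 3.39 and 3.70 to 4.09 CPM after knockdown. Both overlap Gm49353, annotated on the same strand, and their reads cannot be told apart with certainty. Cd55, a complement inhibitor, had 0 counts in all 3 NC + TGF-β1 libraries and 10 to 23 counts in siPdcd5 + TGF-β1, at least 4.67-fold higher when the controls are set to 3 counts per library; the call was lost without siPdcd5 + TGF-β1 replicate 3 (adjusted p = 0.0558, edgeR's quasi-likelihood test).

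The same knockdown without TGF-β1 was measured in 6 other libraries, and it called 427 genes, 3.44%, with 112 higher (0.901%) and 315 lower (2.54%). Of the 129 genes outside the ECM list that were lower with TGF-β1, 86 were also called lower without it, 66.7% of that list and 30.2% of the 285 genes lower without TGF-β1. Of the 39 higher genes 17 were shared, 43.6% of that list and 15.5% of 110. The signs of the log2 fold changes were the same for 128 of the 129 and for all 39. The exception, Pik3ip1, an inhibitor of PI3 kinase, had a log2 fold change of −0.61 with TGF-β1 and 0.05 without it. The median was −0.75 with and −0.67 without TGF-β1 for the lower genes and 0.65 and 0.35 for the higher genes. Both groups of genes were picked by their values with TGF-β1, which favours larger values there. The medians therefore cannot show whether the effect differs in size without TGF-β1.

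A gene called in only 1 of these comparisons is not thereby shown to respond differently. In the test of the difference between both knockdown effects, 0% of genes passed an adjusted p of 0.05 in edgeR's quasi-likelihood test, the smallest adjusted p being 0.213, and 638 genes, 5.13%, had an unadjusted p under 0.05. DESeq2 called 13 genes, Igf1 among them, and edgeR without NC + TGF-β1 replicate 2 called 2, Id2 (a difference of 1.36 on the log2 scale) and Lxn (0.84). Of the genes changed outside the ECM list, 10 of the 39 higher and 22 of the 129 lower ones had an unadjusted p under 0.05 in that test. All of the changed genes were picked by the knockdown effect with TGF-β1, which is part of the tested difference. Picking them raises these counts, so they cannot be set against the 5.13% of all genes.

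**Figure D5:**
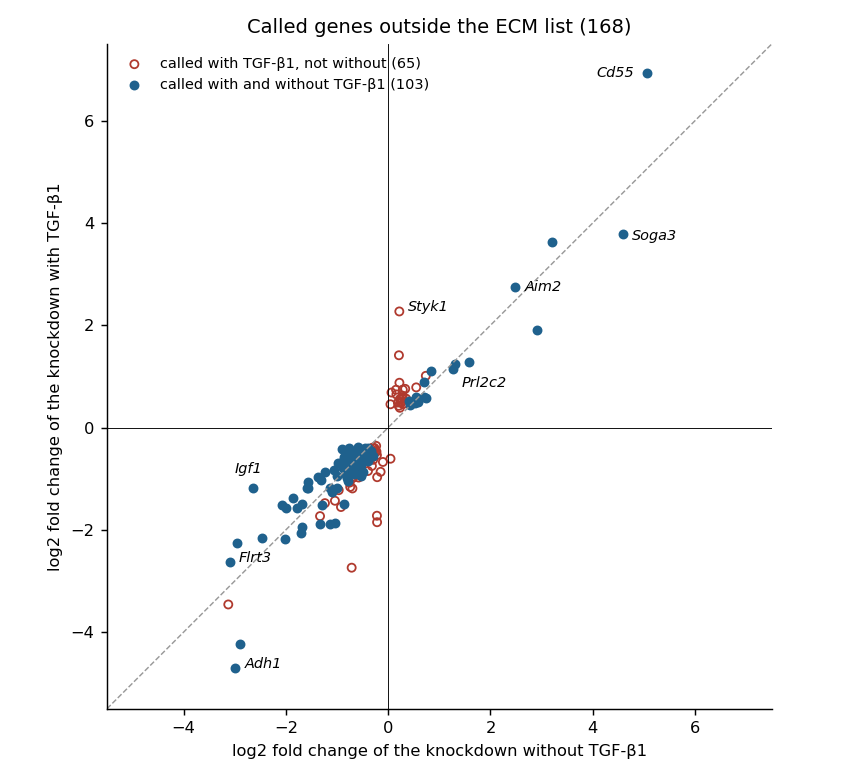
Log2 fold change of Pdcd5 knockdown with TGF-β1 (vertical axis) against the same without TGF-β1 (horizontal axis) for the 168 called genes outside the ECM list; filled points are the 103 genes called in both comparisons, open points the 65 called with TGF-β1 and not without it, and the dashed line marks equal values. All but 1 of the points lie in the quadrants of equal sign, and Igf1 lies farther from 0 without TGF-β1.

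TGF-β1 alone changed 1906 genes in NC cells, 15.3% of those tested, and shares the NC + TGF-β1 libraries with the knockdown comparison, so both values are given side by side without a test of their relation. Krt14 had log2 fold changes of 4.11 with TGF-β1 and −1.18 with the knockdown, Igf1 2.93 and −1.17, Trib3 2.19 and −0.67, Acta2 1.48 and −0.94 and Vldlr 1.28 and −1.18. Slit2 (0.05 and −1.38), Jag1 (0.05 and −1.04) and Klf5 (−0.17 and −0.93) fell with the knockdown without a call for TGF-β1. Lpl (−1.94 and −0.95), Aldh1a1 (−1.22 and −0.57) and Notch1 (−1.09 and −0.54) were lower in both comparisons. Gda (−2.47 and 0.89), Foxa2 (−1.77 and 0.50) and Bcl2 (−1.04 and 0.68) were lower with TGF-β1 and higher with the knockdown, while Prl2c2 was higher in both (1.03 and 1.15).

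In the ECM list, the 3 largest falls were those of Fbln5, an elastic fibre protein (51.9 ± 1.68 against 20.2 ± 1.77 CPM, SD, n = 3 each), Ltbp4, which stores latent TGF-β (13.2 ± 0.612 against 6.66 ± 0.487 CPM), and Col8a1, a network-forming collagen (187 ± 15.5 against 95.1 ± 5.88 CPM). Their log2 fold changes were −1.36, −0.98 and −0.97. By role, 7 of 26 tested collagens, 3 of 37 glycoproteins, 1 of 7 laminins, 3 of 12 matricellular proteins, 2 of 12 proteoglycans and 6 of 39 matrix regulators were lower. The 2 higher genes were Dcn, the proteoglycan decorin (0.88 ± 0.10), and Mmp10, a matrix metalloproteinase (0.97 ± 0.21), whose call was lost in 4 of the 6 fits with a library left out, all but those without NC + TGF-β1 replicate 2 and siPdcd5 + TGF-β1 replicate 1.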

How the data were processed

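Libraries were made with QuantSeq, a kit that reads polyadenylated RNA from its 3′ end. Single-end reads were aligned by the authors to mm10 with Bowtie2. Bedtools coverage was used to count alignments, unique or multiple, and the deposited values are raw counts for each gene symbol. The use of strand is not given in the sources used here, so overlapping and antisense genes, and near-identical copies, are uncertain. Among the named genes not marked for this above, Slit2, Sema3a, Bcl2 and Notch1 overlap annotated genes on both strands. Egfr and Wnt5a, among others, overlap an annotated gene on the other strand. Quantile normalization, which the paper names, is not in the deposited counts.

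From these counts, edgeR 4.0.16 in R 4.3.3 kept 12425 of 23282 rows with its default filter (5134 rows had no count, and 44 rows repeat one of 35 symbols), scaled libraries by TMM and fitted 1 quasi-likelihood model with 4 groups of 3 libraries (square root of the common dispersion 0.132). Contrasts were adjusted by Benjamini-Hochberg over all genes tested, and genes under 0.05 were called. CPM use TMM-scaled library sizes. Log2 CPM use a prior count of 2. Alternatives were upper-quartile and RLE factors, limma 3.58.1 with quantile normalization, DESeq2 1.42.0, other filters on low counts, the 6 libraries alone, a replicate block, a minimum log2 fold change of 1 and each library left out. The fit was tested on simulated counts of 12425 genes with 200 changed, all among genes with a mean above 1 CPM. At 1.5-, 2- and 4-fold, 81, 178 and 202 genes were called, of which 77, 168 and 195 were changed, and 0 when none was changed.

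The members and gene lists were chosen with earlier results of these data known. Named genes are Pdcd5, then the 16 largest falls and 12 largest rises outside the ECM list with an adjusted p under 0.05, no overlap between the groups and a mean log2 CPM of 3 or more, then every called gene of the other lists, the club and airway markers and the 3 largest falls of the ECM list. Others were named after their values were seen. Some genes under this rule are not reported here. Promoter sequences are from RefSeq and gene positions from GENCODE M21, which named 12323 of the genes tested.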

Additional observations from a re-analysis of the deposited data

How the results depend on the processing

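Pdcd5 stayed lower and past the threshold in all 14 alternative fits, with log2 fold changes from −1.56 to −1.43 and adjusted p up to 0.00343 (edgeR, DESeq2 or limma). With −1.49 in the main fit it also met the fold minimum described next. The count of 192 genes fell to 44 with the 6 compared libraries alone (37 of 168 outside the ECM list), to 52 (51) with a minimum absolute log2 fold change of 1, which can only remove genes, and rose to 458 (429) with DESeq2. With a library left out it ran from 73 to 322 (64 to 295 outside the ECM list), highest without NC + TGF-β1 replicate 2. Of the 192 genes 37 passed in all 14 alternatives other than the fold minimum, 30 of them outside the ECM list. For the knockdown without TGF-β1, the 427 genes became 714 with DESeq2, 118 with the fold minimum and 167 to 324 with a library left out, and for TGF-β1 in NC cells the 1906 became 582 with the fold minimum. For the difference between both knockdown effects, DESeq2 called 13 genes and leaving out a library gave 0 to 2. Upper-quartile, RLE and quantile scaling and both filters on low counts kept each of these counts within 1.5 times. Apart from the fold minimum, the cause was not tested. The replicate numbers as a block gave 107 genes (89 outside the ECM list), 301 without TGF-β1, 1687 for TGF-β1 and 0 for the difference. Same-numbered libraries of the compared groups did not deviate together (r = −0.0364, −0.324 and −0.0591 across genes). For NC against siPdcd5 the values were 0.0205, −0.0312 and 0.0796, and for NC against NC + TGF-β1 0.166, 0.166 and 0.00742. Such correlations cannot settle whether the numbers pair the samples, and why calls were lost under the block was not tested. Genes below about 1 CPM rest on few counts and changes under 1.5-fold were mostly not detectable.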
